A study of Caenorhabditis elegans with 2 samples.

Results

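The regions described here are 726 peaks of MXL-1 chromatin immunoprecipitation whose summits lay between protein-coding genes and outside their promoters. They were found among the 4400 strongest nuclear peaks of the pooled list, of which they made up 16.5%. A peak was kept when its summit lay outside every protein-coding gene body, outside promoter windows, which reached 1000 bp before and 200 bp after each protein-coding transcript start, and more than 250 bp from any tRNA, snoRNA, snRNA or rRNA gene. Besides position, the members were selected on 1 measured value, the pooled signal, so signals, ranks and replicate matches are given below as descriptions. The other ranked peaks were 1498 in promoter windows away from those small RNA genes, 711 in introns, 606 at small RNA genes and 859 elsewhere in gene bodies.

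All data came from 1 group, with 2 biological replicates of whole hermaphrodite young adults of Caenorhabditis elegans, collected 67 h after a starvation-synchronised L1 stage. Strain OP537 carries unc-119(tm4063) III and the transgene wgIs537, which fuses MXL-1 at its C-terminus to GFP and FLAG, and the precipitation used an antibody against GFP. No comparison between conditions could be made, cell types within the animal cannot be told apart, and untagged or input samples were not used here. The pooled list held 14200 peaks, 14193 of them nuclear, and it is labelled as holding background as well as peaks. The signal has no stated scale, read depth is unknown, and all 95% intervals below are exact (Clopper-Pearson) and cover the counting of peaks or windows only.

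MXL-1 is a basic helix-loop-helix leucine zipper protein of the Max family, which binds DNA as a dimer, with MDL-1 as its known partner in the worm. Max family dimers recognise the palindromic E-box CACGTG, and related E-boxes share the form CANNTG. The genome of this worm is compact. Sequence beyond promoters includes short stretches that follow the ends of genes, besides longer spans that hold distal regulatory elements, repeats and genes for noncoding RNA.

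The first windows printed here were read from the RefSeq genome on WBcel235 (ce11), plus strand, and show CACGTG in capitals. The first 3 were chosen as being among the strongest members with CACGTG and the last for its place beside mdl-1. They are the member near gdh-1 (chrIV:11956443-11956543), that beyond R03E9.2 on the upstream side of mdl-1 (chrX:6737727-6737827), that near aakg-3 (chrX:2971581-2971681) and the weaker member upstream of mdl-1 (chrX:6741038-6741138).
gdh-1 member: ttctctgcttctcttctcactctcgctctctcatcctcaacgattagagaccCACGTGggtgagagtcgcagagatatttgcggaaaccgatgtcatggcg
distal mdl-1 member: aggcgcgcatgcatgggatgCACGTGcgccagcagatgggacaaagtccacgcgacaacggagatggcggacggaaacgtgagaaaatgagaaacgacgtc
aakg-3 member: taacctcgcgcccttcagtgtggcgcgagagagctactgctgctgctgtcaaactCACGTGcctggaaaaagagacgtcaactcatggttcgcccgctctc
proximal mdl-1 member: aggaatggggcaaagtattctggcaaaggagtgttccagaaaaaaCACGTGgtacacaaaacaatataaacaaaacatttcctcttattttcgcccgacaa

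A second set shows a different sequence, the B box GGTTCGANNCC, the internal promoter element by which tRNA genes bind the RNA polymerase III factor TFIIIC. It was searched on both strands, and matches are in capitals together with CACGTG. In these 3 windows it lies on the minus strand, so the printed strand shows its reverse complement. The windows are those of the strongest member, at the microRNA gene mir-51 (chrIV:11026107-11026207), of the member 9780 bp upstream of ckr-2 (chrIII:2031325-2031425) and of the member past the end of mrpl-40 (chrIII:89277-89377), which holds both sequences.
mir-51 member: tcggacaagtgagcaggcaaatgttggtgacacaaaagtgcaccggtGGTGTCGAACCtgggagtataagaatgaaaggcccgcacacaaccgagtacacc
ckr-2 member: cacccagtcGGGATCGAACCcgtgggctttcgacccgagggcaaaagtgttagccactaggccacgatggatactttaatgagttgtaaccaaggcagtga
mrpl-40 member: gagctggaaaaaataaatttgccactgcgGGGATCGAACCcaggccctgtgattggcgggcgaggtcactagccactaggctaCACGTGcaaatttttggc

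The strongest member (chrIV:11025937-11026376) had a pooled signal of 193.8, with 100.5 in replicate 1 and 101.1 in replicate 2. It lay at mir-51 and the ncRNA gene F36H1.17, 287 bp past the end of alh-3, an aldehyde dehydrogenase family gene, and its nearest protein-coding start was that of the heme-responsive family gene hrg-5. The next had a signal of 133.9 (59.6 and 70.5), 1217 bp upstream of zfr-1 on chromosome I (chrI:852014-852453), where the zinc finger RNA-binding protein ZFR-1 is encoded. Both values of the mir-51 member were higher than those of any other member in the same replicate.

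The member with the third highest signal, 133.1 (66.4 and 57.4), lay 6064 bp upstream of K02D3.1 (chrX:13700623-13701062). The fourth, at 126.8 (48.8 and 74.8), lay 2704 bp past the end of W02H3.3 (chrX:11094028-11094467). Then came the gdh-1 member (chrIV:11956273-11956712) at 124.5 (57.1 and 66.7), which lay 952 bp past the end of gdh-1, the gene of the mitochondrial enzyme glutamate dehydrogenase, and at the ncRNA gene ZK829.13. These 3 regions were of similar pooled signal, and which replicate was the higher differed among them.

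The strongest members of the remaining chromosomes had lower signals. The lgc-26 member (chrV:265108-265547), 2979 bp upstream of a ligand-gated ion channel gene, had 118.0 pooled, 30.2 in replicate 1 and 82.2 in replicate 2. The ckr-2 member (chrIII:2031155-2031594), upstream of a gene for a cholecystokinin receptor homologue, had 108.2 (57.7 and 48.9). The mak-1 member (chrII:8747119-8747558), 89 bp past the end of a protein kinase gene, had 103.5 (31.8 and 72.7). The lgc-26 and mak-1 members were thus higher in replicate 2, while the ckr-2 member was higher in replicate 1.

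Across the 20 strongest members the lowest pooled signal was 89.0, that of the member 1356 bp past the end of C36C5.14 on V (33.7 and 45.8). On X there were 6 of these regions and on I 1, 5 had a soft-masked summit and 6 lay within 500 bp past a gene end. CACGTG was present in 4 of them, near gdh-1, R03E9.2, aakg-3 and Y110A2AR.1. Signals were higher in replicate 1 at 7 and in replicate 2 at 12, and the remaining member, near WBGene00020828 on X, had no matched summit in replicate 1, with 110.9 pooled and 66.7 in replicate 2. The other named regions of this set lay near D2096.7 (117.5), C14C11.7 (98.97), the F-box gene fbxa-55 (91.97), C30E1.4 (90.97), Y22D7AL.10 (90.3), F44E5.4 (89.6) and ftn-1 (89.2), which encodes a ferritin heavy chain. The pooled signals of the R03E9.2, aakg-3 and Y110A2AR.1 members were 102.9, 92.9 and 90.2.

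**Figure D1:**
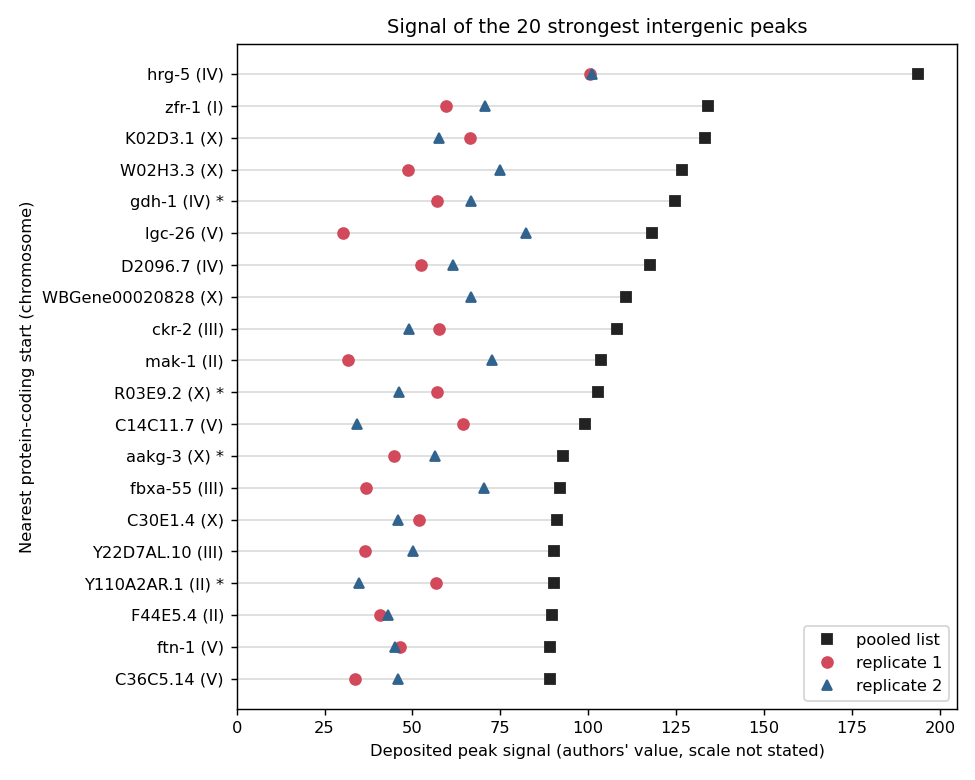
Deposited signal of the 20 strongest intergenic peaks in the pooled list (squares), replicate 1 (circles) and replicate 2 (triangles), on the authors' unstated scale, labelled by the nearest protein-coding start and chromosome. An asterisk marks CACGTG within 100 bp of the summit. The mir-51 member, labelled hrg-5, stands at 193.8, ahead of 133.9 for the next, and WBGene00020828 has no replicate 1 point.

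Over all 726 members the pooled signal ran from 36.01 to 193.8, with a median of 41.8 and quartiles of 38.3 and 48.2. Promoter peaks had a median of 42.4 and intronic peaks 41.1, under the same limit on signal. The 10 members just inside that limit had signals from 36.01 to 36.1, and the 10 intergenic peaks just outside it 35.9 to 36.00. Members therefore sat mostly in the lower range, and 49 of them (6.75%) were in the authors' thresholded list, where they made up 8.91% of its 550 nuclear peaks.

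A replicate summit within 100 bp of the member's summit was found for 559 members in replicate 1, where the matched signals ran from 12.8 through a median of 21.9 to 100.5. Replicate 2 had one for 606 members, from 12.9 through 23.1 to 101.1. Both replicates had one at 448 members (61.7%, 58.1 to 65.3), and neither did at 9. Among promoter peaks 60.1% and among intronic peaks 60.3% had both. Agreement followed strength, with 89 of the 100 strongest members matched in both replicates and 41 of the 100 weakest. When only the 4400 strongest nuclear peaks of each replicate were searched, 131 members (18.0%) were matched in both. Most members thus stood lower, or had no summit within 100 bp, in at least 1 replicate list.

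The members gathered past the ends of genes. A summit within 500 bp downstream of a protein-coding transcript end was found at 240 members (33.1%, 29.6 to 36.6), whereas 13.9% of the bases that the position rule left eligible lie there. Within 250 bp of the nearest end there were 157 members (21.6%, 18.7 to 24.8) against 7.94% of eligible bases, and from 250 to 500 bp there were 83 (11.4%, 9.21 to 13.97) against 5.96%. At 2000 to 5000 bp the order was the opposite, with 24.9% (21.8 to 28.2) of members and 32.6% of eligible bases. The rule removed upstream promoter sequence but left sequence past ends in place, which the eligible bases take into account. This position was chosen for description after the distances had been seen, and it was given no test.

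Distances to gene starts differed less. The nearest start was a median of 2281 bp away, against 2690 bp for eligible bases, and the member was on the upstream side in 413 cases (56.9%). Starts within 1000 to 2000 bp accounted for 35.7% of members (32.2 to 39.3) and 31.5% of eligible bases, and starts beyond 5000 bp for 12.8% (10.5 to 15.5) and 20.5%. The most remote member lay 41048 bp from any start. Members occupied 639 separate intergenic spans, of which 73 held more than 1 member and none more than 4.

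**Figure D2:**
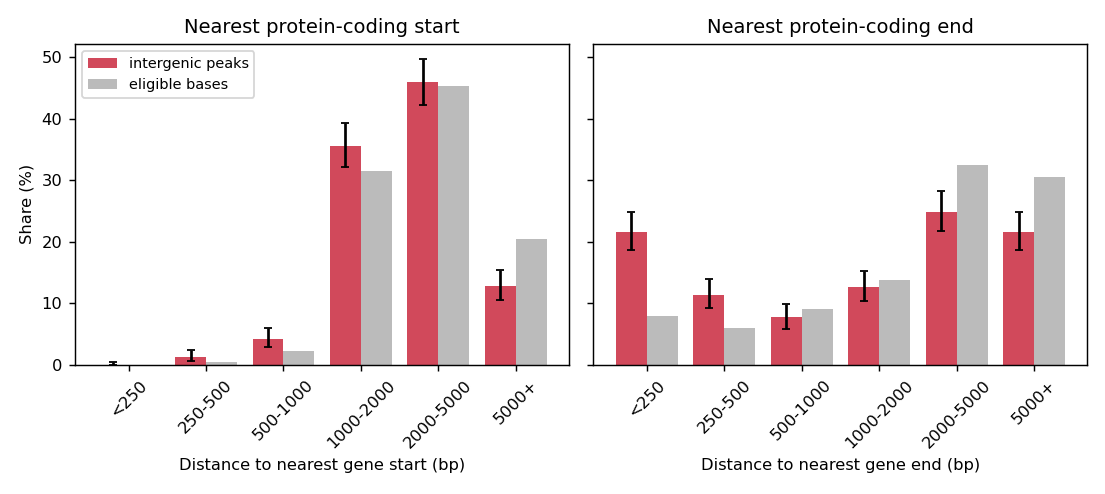
Share of the 726 intergenic peaks (red bars, with exact 95% intervals) and of eligible bases (grey bars) by distance in bp to the nearest protein-coding start (left) and end (right). Within 250 bp of an end the members reach 21.6% and the eligible bases 7.94%.

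Among the genes with a member just past their end were those of cytosolic ribosomal proteins, the structural proteins of the ribosome. Of 32 such genes with an eligible base within 500 bp past an end, 9 had a member there (28.1%, 13.7 to 46.7), against 268 of 9848 other genes (2.72%). A member between convergent genes can count for both, and 40 of the 240 members lay past the ends of more than 1 gene. This comparison was chosen after the members' neighbours had been seen and is a description. The small-subunit gene rps-6 had a member 116 bp past its end with a signal of 78.0 (41.1 and 38.6), and the large-subunit gene rpl-31 had one at 139 bp with 76.0 (35.3 and 40.7) that holds CACGTG. Both were found at similar signal in each replicate. The member 237 bp past rps-19, and nearer to the end of T05F1.2, had 77.1 (23.7 and 51.7), and that 159 bp past rpl-11.1, and nearer to the end of pygl-1, had 75.3 with a match only in replicate 2 (37.5).

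The member 64 bp past rps-8 had 60.2 (26.2 and 31.8), and that 112 bp past rpl-7A had 53.9 (28.0 and 25.01). At rps-27 the member had 56.3 pooled and 49.7 in replicate 1, with no match in replicate 2, and at rps-15 it had 55.3 pooled and 40.5 in replicate 2, with no match in replicate 1. The rps-14 member was among the weakest, at 36.5 (14.1 and 23.4). Thus 6 of these 9 regions were matched in both replicates. The level of transcription of these genes was not measured, and its part in the signal was not tested.

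Members past gene ends are compared here with the others in composition, without a test. The 240 members within 500 bp past an end had a median GC content of 37.3% in the 201 bp around the summit and 34.6% of their summits in soft-masked sequence, while the other 486 had 40.8% and 26.1%. CACGTG was about as frequent, at 7.92% (4.83 to 12.1) and 7.20% (5.07 to 9.87). The sequence GAGAGA was found at 12.5% of the first set and 23.7% of the second. Eligible bases past gene ends were not compared in this way with those elsewhere. The part of the general composition of sequence past ends in these differences was therefore not tested.

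Noncoding RNA genes other than those the rule removed lay near part of the members. An ncRNA gene, the annotation's unclassified class, was within 250 bp of 97 members (13.4%, 10.97 to 16.1), against 5.48% of eligible bases (exact binomial test, adjusted p = 7.45e-15 over 6 biotypes). Overlapping members at the same ncRNA gene were counted separately. The summit itself was inside such a gene at 49 members (6.75%), and 1.66% of eligible bases were. The strongest were the mir-51 and gdh-1 members and the C30E1.4 member at C30E1.9 (51.8 and 45.9 in the replicates). Members at ncRNA genes had a median GC content of 44.3% against 38.8% for the rest, and the part of GC in this difference was not tested. CACGTG was found at 7.22% of them and 7.47% of the rest.

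MicroRNA genes, whose products are short RNAs that repress messenger RNAs through a seed of bases 2 to 8, were near 7 members (0.964%, 0.389 to 1.98) against 0.243% of eligible bases (exact binomial test, adjusted p = 0.00338). These 7 regions marked 6 genes, since mir-52 had a pair of overlapping members, which the test counted separately. 1 mature RefSeq sequence of each gene is shown with its seed in capitals, because mir-51 and mir-52, which were at the strongest of these regions, carry the same seed.
mir-51 a: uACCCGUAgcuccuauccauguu
mir-52 a: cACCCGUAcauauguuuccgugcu
mir-80 b: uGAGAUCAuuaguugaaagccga
mir-238 b: uUUGUACUccgaugccauucaga
mir-236 b: uAAUACUGucagguaaugacgcu
mir-4937 a: cUGGGUAGagguugggcggugga

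The mir-51 summit lay 45 bp upstream of the hairpin start (chrIV:11026013-11026112, minus strand). At mir-52 (chrIV:14034008-14034107, plus strand) a member with signal 79.6 (21.5 and 59.7) lay 167 bp upstream of the hairpin start, and a member with 83.1 (26.8 and 52.7) lay 87 bp downstream of it, inside the hairpin. Both mir-52 members were higher in replicate 2. The mir-80 member, 54.8 (20.6 and 36.4), was 225 bp upstream, and the mir-4937 member, 42.5, was 81 bp upstream with a match only in replicate 2 (16.5). The mir-238 member, 56.2 (30.8 and 25.2), lay 297 bp downstream of its hairpin start, and the mir-236 member, 44.7 (20.9 and 20.6), 2 bp downstream. The summits thus fell before, within and after the hairpins.

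piRNA genes and pseudogenes were less frequent than the eligible bases would give. The piRNA genes, which encode germline small RNAs and lie mostly on IV, were near 20 members (2.75%, 1.69 to 4.22) against 6.77% (exact binomial test, adjusted p = 5.82e-06). The strongest of these were near 21ur-15153 on X (68.3, with 35.3 and 42.5), 21ur-6987 on IV (67.8, with 24.8 and 35.8) and 21ur-13952 on III (62.1, with 22.4 and 37.3). Pseudogenes were near 65 members (8.95%, 6.98 to 11.3) against 13.2% (exact binomial test, adjusted p = 0.000883), among them the members near WBGene00020828, srw-33 (70.5, matched only in replicate 1 at 30.6) and ser-4 (69.6, with 38.4 and 26.1). lincRNA genes were near 9 members (1.24%) against 0.972% (adjusted p = 0.533), the strongest being the rpl-31 member at linc-1, then those at linc-91 (45.4) and linc-129 (42.8). No member was at an antisense RNA gene, which allows a share of up to 0.507% (exact upper bound), at 0.0832% of eligible bases. None of the 6 biotypes was near 536 members (73.8%).

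The B box marked a small set of members outside annotated tRNA genes. It was found in the 201 bp window of 18 members (2.48%, 1.48 to 3.89), of 4 windows centred 1000 bp lower and of 3 centred 1000 bp higher. Of 24926 windows spread evenly over the eligible bases, 88 held it (0.353%), and so did 11 of the 1498 promoter peaks (0.734%), 23 of the 711 intronic peaks (3.23%) and 261 of the 606 peaks at small RNA genes (43.1%). The search was made after the strongest windows had been read, so it has no test. Among the 100 strongest members 9 held the B box, and among the other 626 another 9 did.

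The 18 members with a B box had a median signal of 52.7, against 41.7 for the rest, and 15 were matched in both replicates. Because the B box was first seen in strong members, its signal, replicate matches and share among the strongest were partly set by that choice. In 14 of the 18 the B box centre was within 50 bp of the summit, 2 bp away at mir-51 and 16 bp away at mrpl-40. Only 2 lay at a tRNA pseudogene annotated by RefSeq, Y22D7AR.t1 and Y53G8B.t9, both on III, and 7 of the 18 were on III. The mrpl-40 member, past the end of a mitochondrial ribosomal protein gene (chrIII:89107-89546), had 83.1 (36.4 and 48.9), and it was the only one of the 18 that also held CACGTG. No measurement of transcription by RNA polymerase III was used here.

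By chromosome, III held 106 members (14.6%, 12.1 to 17.4) against 11.2% of eligible bases (exact binomial test, adjusted p = 0.0138 over 6 chromosomes). Chromosome IV held 115 (15.8%, 13.3 to 18.7) against 20.04% (exact binomial test, adjusted p = 0.0138). When either replicate list was used alone these differences kept their direction and missed the threshold, with exact binomial adjusted p = 0.147 and 0.0676 for III and 0.364 and 0.108 for IV in replicates 1 and 2. On X there were 176 (24.2%, 21.2 to 27.5) against 22.6%, and for I, II, V and X the exact binomial adjusted p lay between 0.26 and 0.814. Among 2200 ranked peaks neither III (exact binomial adjusted p = 0.0919) nor IV (0.589) passed, while V did, at -6.50 points against eligible bases (0.0239). Away from piRNA genes, 13.9% of members and 14.6% of eligible bases were on IV. Without the members that held a B box, 13.98% of members were on III.

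The flanking genes pointed the same way (tandem) around 423 members (58.3%, 54.6 to 61.9) against 53.4% of eligible bases (exact binomial test, adjusted p = 0.00919 over 3 arrangements). Genes that pointed towards the member from both sides (convergent) flanked 147 (20.2%, 17.4 to 23.4) against 16.4% (exact binomial test, adjusted p = 0.00919). Genes that pointed away on both sides (divergent) flanked 154 (21.2%, 18.3 to 24.4) against 29.9% (exact binomial test, adjusted p = 4.67e-07), and 2 members lay at chromosome ends. In the list of replicate 1 alone the convergent difference missed the threshold (exact binomial adjusted p = 0.056), and in that of replicate 2 alone the convergent (0.0535) and tandem (0.0517) differences did. The deficit between divergent genes passed in both. Divergent genes flank a span with their starts, and tandem or convergent genes with at least 1 end. The arrangement shares thus overlap with the excess past gene ends and are not separate results. Arrangement was not tested apart from that excess.

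Sequence that the reference soft-masks as repetitive held 210 summits (28.9%, 25.6 to 32.4) against 40.4% of eligible bases (exact binomial test, p = 1.73e-10). The share was 34.3% in the list of replicate 1 and 27.7% in that of replicate 2 (mean 30.96 ± 4.67%, SD, n = 2). Promoter summits were soft-masked in 25.2% and intronic summits in 41.1%. How uniquely reads align in such sequence was not measured, and its part in the deficit was not tested. A run of 24 bases was shared with another, non-overlapping member by 86 members (11.8%), in 19 groups of which the largest had 18 and 12 members, so these windows are not independent sequences.

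**Figure D3:**
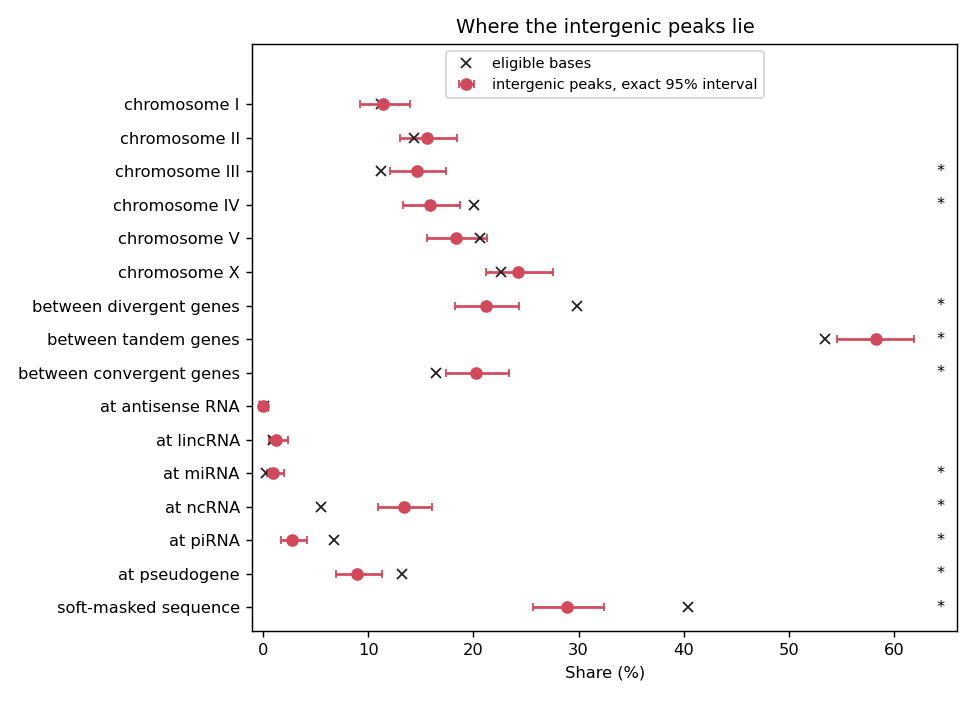
Share of the 726 intergenic peaks (circles, with exact 95% intervals) and of eligible bases (crosses) on each chromosome, between gene pairs of each arrangement, within 250 bp of each biotype and in soft-masked sequence. Asterisks at the right mark an exact binomial adjusted p under 0.05, as for ncRNA genes, with 13.4% of peaks and 5.48% of eligible bases.

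The E-box CACGTG was more frequent at the summits than beside them. It lay within 100 bp of the summit in 54 members (7.44%, 5.64 to 9.59), against 3.17% of windows centred 1000 bp lower (exact McNemar test, p = 0.00045) and 3.03% of those 1000 bp higher. Of 24926 windows over the eligible bases 2.88% held it. With each replicate's own list the share at the summit was 6.52% and 5.67% (mean 6.096 ± 0.597%, SD, n = 2), against 3.36 ± 0.740% in the lower flank. The letters occurred 61 times in the 54 members, of which 6 held more than 1 copy. The E-box centre nearest to the summit was a median of 42.5 bp away.

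The members with CACGTG had a median signal of 44.6, and those without it 41.6. The 5 strongest with CACGTG were those near gdh-1, R03E9.2, aakg-3, Y110A2AR.1 and mrpl-40. The R03E9.2 member had replicate signals of 57.1 and 46.1 and the aakg-3 member, 4817 bp upstream of a gamma subunit gene of the AMP-activated kinase (chrX:2971411-2971850), had 44.6 and 56.4. The Y110A2AR.1 member (chrII:2920735-2921174), 51 bp past the gene's end, had 56.6 and 34.8. All 5 were matched in both replicates.

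The frequency of CACGTG was close to that in other classes of the same ranked list. Promoter peaks held it in 6.61% (5.403 to 7.99; Fisher's exact test, adjusted p = 0.713) and intronic peaks in 5.34% (3.81 to 7.26; adjusted p = 0.452), so no difference was detectable with this number of regions. None of the 15 listed sequences differed from either class, with 0 of 30 Fisher's exact tests past an adjusted p of 0.05 and 2 at an unadjusted p under 0.05. GAGAGA was the lowest in p, at 19.97% of members and 15.2% of intronic peaks (Fisher's exact test, adjusted p = 0.452). With windows of 50 or 250 bp either side, 1 of the 30 comparisons passed.

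Among the other sequences, CAAGTG, an E-box that is not a palindrome, was at 10.1% of summits and 4.96% of lower flanks (exact McNemar test, adjusted p = 0.00222 over 15 sequences), but in the lists of replicates 1 and 2 alone it did not pass (exact McNemar adjusted p = 0.323 and 0.477), nor did it against flanks 2000 bp away (0.578). GAGAGA was at 19.97% and 11.8% (exact McNemar test, adjusted p = 0.000353), CGCGCA at 7.71% and 3.72% (0.00455) and CACTGC at 8.95% and 4.68% (0.00455). In the list of replicate 2 alone GAGAGA (exact McNemar adjusted p = 0.0709) and CACTGC (0.0744) missed the threshold. CAGCTG, made of the same letters as CACGTG in another order, was at 5.10% and 4.13% (exact McNemar test, adjusted p = 0.762). The tRNA-associated letters GTTCGA, the core of the B box, were at 10.2% and 8.40% (0.485), and they passed against flanks 2000 bp away, with a difference of 4.13 points (exact McNemar adjusted p = 0.0204).

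A scan of all 2080 strand-collapsed 6-mers against both flanks found 204 more frequent at the summits (9.81%) and 103 less frequent (4.95%), by Fisher's exact test with an adjusted p under 0.05. CAGGCA led, in 82 members (11.3%) against 3.03% of flanks (Fisher's exact test, adjusted p = 1.49e-10), followed among the more frequent by GCAGGC (9.64% and 3.10%) and GCGCCC (6.89% and 1.72%). Of the members with CAGGCA, 6 also held CACGTG, and 7.28% of promoter peaks held CAGGCA. The leading sequences of lower frequency were TCAAAA (36.2% and 50.6%) and TTCAAA (35.7% and 48.3%). CACGTG ranked 41 by p (Fisher's exact test, adjusted p = 0.000482). This scan did not use the pairing of summit and flank windows at the same locus, and it kept the members that share 24 bases. Overlapping sequences such as CAGGCA and GCAGGC are not separate results.

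The direction followed base composition. Of the 36 6-mers made only of G and C, 21 were more frequent and 0 less, and of the 36 made only of A and T, 0 were more frequent and 24 less. CACGTG had 2.4 times its flank frequency and ranked 7 by this ratio among the 492 6-mers with 4 G or C, for which the median ratio was 1.35. CAGCTG had a ratio of 1.16.

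GC content itself was higher at the summit than 1000 bp lower in 499 members, lower in 216 and equal in 11 (exact sign test, p = 1.13e-26), with medians of 39.3% and 35.3%. The median paired difference was 2.99 points in the list of replicate 1 and 4.48 in that of replicate 2 (mean 3.73 ± 1.06, SD, n = 2). Promoter and intronic summits both had a median of 39.8%, and windows over the eligible bases 33.3%. In 50 bp steps the mean GC content of members rose from 35.5% at the lower edge and 35.2% at the upper edge to 41.5% just before the summit. Without an input sample, the part of GC-dependent recovery of DNA in this rise was not tested.

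**Figure D4:**
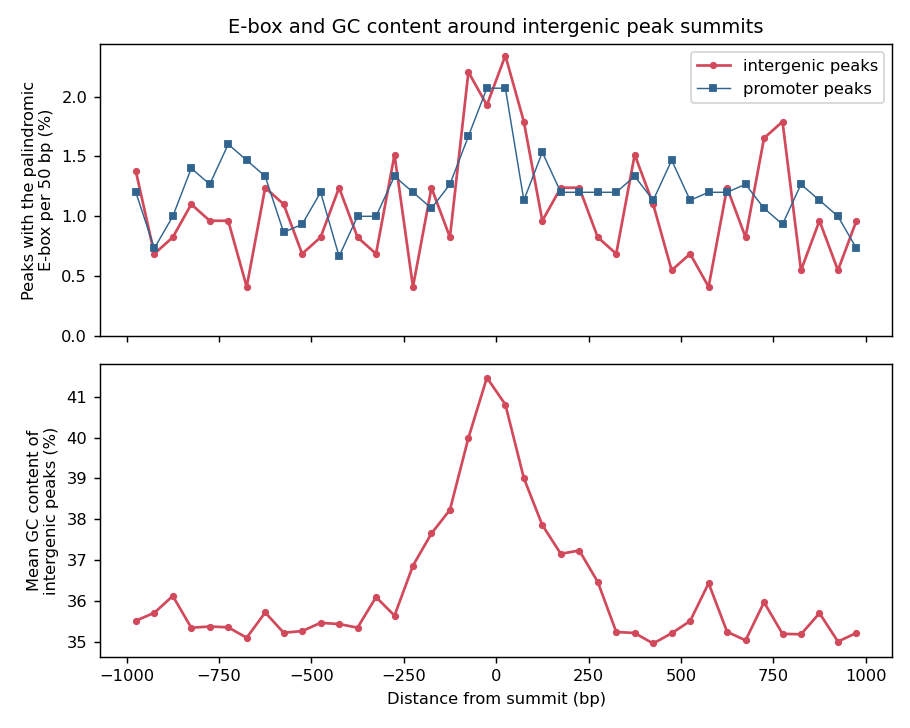
Share of peaks with CACGTG in each 50 bp step (upper panel, intergenic peaks in red and promoter peaks in blue) and mean GC content of the intergenic peaks (lower panel), by distance from the summit in bp. Both rise within 100 bp of the summit, where the E-box reaches 2.34% and GC content 41.5%.

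Of the 5 genes of the Max network (mxl-1, mxl-2, mxl-3, mdl-1 and mml-1), mdl-1 and mxl-3 were the nearest start of a member. The gene mdl-1 encodes the Mad-like partner of MXL-1. A member with signal 43.5 (chrX:6740868-6741307) lay 1263 bp upstream of its start, with 23.5 in replicate 1 and no match in replicate 2, and holds CACGTG 5 bp from the summit. A member with 64.3 (38.7 and 27.7; chrX:6743987-6744426) lay 308 bp past its end, at the ncRNA genes R03E9.7 and R03E9.10, without CACGTG. The stronger R03E9.2 member, with 102.9 (chrX:6737557-6737996), lay 4574 bp upstream of the mdl-1 start in the same divergent span, and its nearest start, that of R03E9.2, was 4476 bp away. It too holds CACGTG, 30 bp from the summit.

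Between the members around mdl-1 lay ranked peaks of other classes, with 45.5 and 39.6 in the promoter window and 72.7 in the gene body. The member near the Max-like gene mxl-3, a repressor of lipase genes in fed worms, had 44.2 (13.7 and 30.9; chrX:13354731-13355170) and lay 4147 bp upstream of the start. It holds CACGTG 77 bp from the summit. Of the 3 members nearest to these genes, 2 thus held the E-box and 2 were matched in both replicates.

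**Figure D5:**
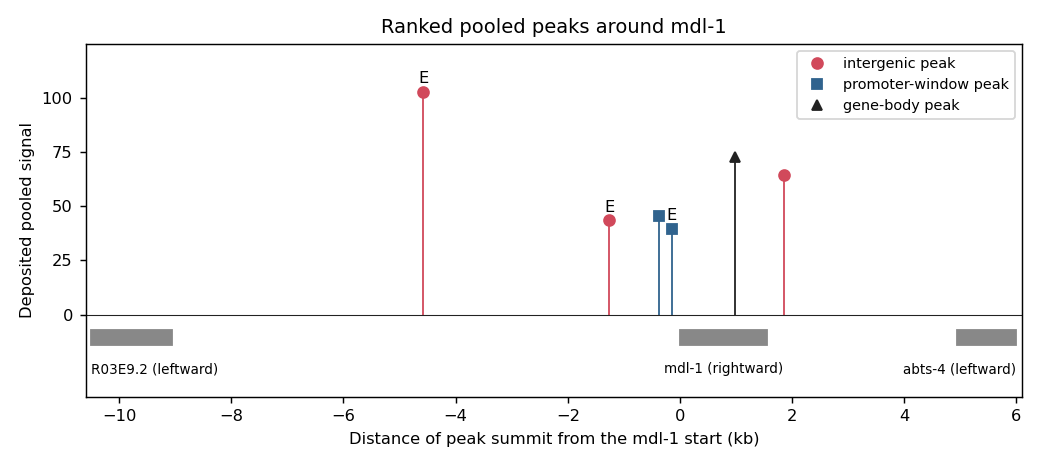
Pooled signal of ranked peaks around mdl-1 by distance of the summit from the mdl-1 start in kb, with protein-coding genes as grey boxes and the direction of each named. Circles are intergenic peaks, squares promoter-window peaks and the triangle a gene-body peak, and E marks CACGTG within 100 bp. The highest is the intergenic peak at 102.9, and 2 of the 3 intergenic peaks hold the E-box.

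The 726 members had 664 different nearest starts among 19973 protein-coding genes, and gene families are given as shares of each without a test. The share of all genes does not take into account how much eligible sequence lies beside each gene. Chemoreceptor genes, which encode the receptors of smell and taste, were 17 of the nearest starts (2.56%) and 6.56% of all genes. Nuclear hormone receptor genes, ligand-dependent transcription factors, were 15 (2.26%) and 1.35%, with nhr-14, nhr-249 and nhr-88 at the strongest members. Ribosomal protein genes were 8 (1.20%) and 0.406%. F-box genes were 9 (1.36%) and 1.61%, C-type lectin genes 4 (0.602%) and 1.20%, unc- genes 5 (0.753%) and 0.471%, and the homeobox, collagen, histone and heat shock lists had 1 each. No major sperm protein gene of 31 was a nearest start.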

How the data were processed

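MXL-1 ChIP-seq peaks came from 2 biological replicates of 1 group. The values are the peak signal that the authors deposited with each peak, in 1 list per replicate, 1 list on pooled replicates and 1 thresholded list. The scale of the signal is not stated. For the aligner and the peak caller, names and versions were not found in the sources used here, and read depth per replicate is unknown. Lists on the older build ce10 were not used.

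Genes came from Ensembl and sequence, soft-masking and mature microRNAs from RefSeq, both on WBcel235, the assembly of ce11. Positions are 1-based. Nuclear peaks were ranked by pooled signal, and members, gene lists, sequences and tests were chosen with earlier results of these data known. Eligible bases are those that meet the position rule, 24.9% of the nuclear genome. Windows reached 100 bp either side of the summit. Motifs were searched on both strands, and overlaps between motifs were allowed. Tests were exact McNemar, sign, binomial and Fisher's exact tests, all two-sided at 0.05, with Benjamini-Hochberg adjustment. Peaks are not replicates: p-values describe regions of this pooled list. Every member counted separately in the binomial tests, although 160 members shared a span with another and 37 neighbouring pairs lay within 1000 bp. The 6-mer scan was tested on simulated data whose summit and flank windows had the same base composition. That setting differs from the members, so it did not check calls that follow GC content.

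Named members are the 20 strongest, the strongest per chromosome, the 5 strongest with CACGTG, up to 3 per noncoding biotype, and those nearest to Max network genes. The ribosomal protein, microRNA and B box members beyond these were named after their values were seen. Alternatives changed the ranked number, list, promoter window, distances, windows, flanks and replicate. Calculations used Python 3.11.15, numpy 2.4.6, pandas 2.3.3, scipy 1.17.1 and matplotlib 3.10.9.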

Additional observations from a re-analysis of the deposited data

How the results depend on the processing

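The number of peaks ranked set most counts. With 2200 nuclear peaks there were 311 members, 76.8% matched in both replicates, 49 6-mers called (38 more frequent), 1 chromosome called (V, at -6.50 points, with neither III nor IV) and an excess past gene ends of 29.2 percentage points (19.1 as reported). With the thresholded list these were 49 members, 89.8%, 3 (3), 0 and 35.1 points, 2 biotypes passed in place of 4, and the calls for CACGTG against flanks (10.2 points, exact McNemar p = 0.227) and for soft-masked sequence (-11.8 points, exact binomial p = 0.109) were lost. The promoter window of 2000 bp upstream gave 119 6-mers (84) and 0 chromosomes, and that of 500 bp gave 1 listed sequence that differed between classes. Removing all other gene bodies gave 1 chromosome (IV). Windows of 50 bp gave 170 6-mers (119) and 1 such sequence. Windows of 250 bp gave 1, and CACGTG against flanks fell to 2.75 points (exact McNemar p = 0.1). Matching within 50 bp gave 40.1% and within 250 bp 80.0%.

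Leaving out either replicate gave 34.0 to 34.2% of that list's members with a match in the other replicate's list, 83 to 208 6-mers (62 to 136), 0 chromosomes and 1 to 2 arrangements, and CACGTG against intronic peaks from -0.294 to 2.31 points. The same range was -0.106 to 1.42 points for chromosome I, -0.832 to 0.81 for chromosome II and -0.547 to 0.276 for lincRNA genes. Among single sequences, chromosomes, biotypes and arrangements, 148 values over all alternatives kept their direction and side of the threshold, 10 changed sign without passing, 32 no longer passed and 2 newly passed (chromosome V with 2200 peaks and GTTCGA against flanks 2000 bp away). Differences that never passed the test changed sign as follows. CACGTG against intronic peaks was -11.6 points with the thresholded list and -0.103 with 250 bp windows, and against promoter peaks -0.0151 with 50 bp and -1.25 with 250 bp. CAGCTG against flanks was -4.08 with the thresholded list. Chromosome I was -1.23 with 2200 peaks, -0.998 with the thresholded list and -0.731 and -0.607 with the wide and narrow promoter. Chromosome II was -0.0219 with the thresholded list, and lincRNA genes were -0.329 with 2200 peaks.

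Chosen after seeing the data, 4 alternatives for flanks and members (the upper flank, only eligible flanks, only members matched in both replicates, no members that share 24 bases) left CACGTG at 7.44 to 8.26% of summits and 2.81 to 3.57% of flanks (exact McNemar p from 0.000101 to 0.0054), with GC content also higher at the summit in each. The cause of each change was not tested, and this includes the smaller number of members in the shorter lists. Depth per replicate is unknown.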
